A study of Homo sapiens with 8 samples.

Results

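*LEFTY1*, *LEFTY2*, *BAMBI*, *SMAD6*, *SMAD7*, *ID1*, *ID2* and *ID3*, 8 genes of feedback in transforming growth factor-beta (TGF-beta), Nodal and bone morphogenetic protein (BMP) signaling, were followed in RNA-seq libraries of HEK293T cells. They were taken by gene symbol, as 8 of the 19770 genes in the files. All 8 passed the filter on low values, *LEFTY1* and *LEFTY2* only through the activator libraries, as their control levels were below its limit. The genes were selected on an earlier analysis of these same libraries, in which *LEFTY2* was among the genes with the largest change under the SAM system. Their values are therefore given here as a description. How many of the 8 meet a call rule is counted beside the share of all genes that meet it, and nothing is read from those counts.

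HEK293T is an established human embryonic kidney cell line that carries the SV40 large T antigen. The series asked how specific CRISPR-DREAM is across the transcriptome when it is targeted to the fetal globin genes *HBG1* and *HBG2*. RNA was taken at 72 h post-transfection from 4 groups of 2 libraries each. Every group, the control included, received 125 ng of a gRNA pool for *HBG1* and *HBG2*, so none of the groups shows cells without a targeted dCas9.

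The control received dCas9, the nuclease-inactive Cas9, and MCP-mCherry, a fusion of the MS2 coat protein (MCP) to a fluorescent protein. CRISPR-DREAM received dCas9 and MCP-MSN, in which MSN joins transactivation domains of human transcription factors. The SAM system received dCas9-VP64 and MCP-p65-HSF1. These 3 groups were transfected with 187.5 ng of each effector plasmid and with gRNAs that carry MS2 loops. The dCas9-VPR group received 375 ng of 1 plasmid, in which the VPR effector is fused to dCas9, and gRNAs with no MS2 label. The dCas9-VPR comparisons thus also differ in gRNA form. The MCP-based groups are called DREAM and SAM from here on. Transient transfection leaves a mixed population of transfected and untransfected cells, so a difference in the share of cells that respond and a difference in RNA per cell cannot be told apart.

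Ligands of the TGF-beta superfamily bind pairs of type I and type II serine/threonine kinase receptors, which phosphorylate receptor SMADs that enter the nucleus with SMAD4. TGF-beta, activin and Nodal act mainly through SMAD2 and SMAD3, whereas BMPs act through SMAD1, SMAD5 and SMAD9. The pathway switches on its own inhibitors. *LEFTY1* and *LEFTY2* encode secreted antagonists of Nodal, *BAMBI* a receptor-like protein without a kinase domain, and *SMAD6* and *SMAD7* inhibitory SMADs. *ID1*, *ID2* and *ID3* encode helix-loop-helix proteins without a DNA-binding domain and are textbook targets of BMP signaling.

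Values are deposited as CPM, the share of a library's counts that fell on a gene on a fixed scale. Estimated depth was 28.4 to 35.2 M reads per library, so that 3 reads, taken as the lower limit of detection for counting error only, were worth 0.0853 to 0.105 CPM. The target gene *HBG2* fitted the labels, with 0.837 and 1.29 CPM in control replicates 2 and 1, 2187 and 2874 CPM under DREAM, 707 and 860 CPM under SAM, and 218 and 201 CPM under dCas9-VPR. All 8 listed HEK293 markers were in the files, with a summed level of 528 to 698 CPM per library. That sum rests largely on *VIM*, at 267 to 440 CPM, whereas *PAX2* and *LHX1* were at 0.798 to 2.25 CPM. The 4 fibroblast markers found, of 5 listed, summed to 14.5 to 22.0 CPM, the 2 blood cell markers, of 4 listed, to 3.06 to 4.74 CPM, and the 1 hepatocyte marker, of 3 listed, was at 0.0633 to 0.313 CPM. The SAM libraries had the highest fibroblast sums, at 21.8 and 22.0 CPM, and their part in the differences below was not tested.

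*LEFTY2* had the largest difference of the 8 genes in every comparison with the control. The gene lies on the minus strand of chromosome 1 at 225936598 to 225941383 (hg38). It was at 0.313 and 0.412 CPM in the control libraries, the worth of 9.81 and 12.6 reads. Its level was 5.71 and 7.68 CPM under DREAM, 7.40 and 8.51 CPM under SAM, and 3.66 and 3.04 CPM under dCas9-VPR. All 6 activator libraries were thus above both control libraries, and the dCas9-VPR libraries were below the 4 libraries of the MCP-based activators, as the plot of levels by library shows. A lack of overlap with the control was common. Of 83 other pathway genes tested, 55 under DREAM, 65 under SAM and 55 under dCas9-VPR had none. That share over all genes is not given here.

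The ratio of mean *LEFTY2* CPM to the control was 18.5 under DREAM, 22.0 under SAM and 9.23 under dCas9-VPR. On the log2(CPM + 0.5) scale, which compresses differences at low CPM, the differences were 3.05, 3.29 and 2.16, each with a standard error of 0.17. The DREAM and SAM libraries overlapped, and their log2 difference was -0.24 ± 0.17, where ± on the log2 scale is the standard error throughout. *LEFTY2* was higher than under dCas9-VPR by 0.89 ± 0.17 under DREAM and by 1.14 ± 0.17 under SAM. The levels thus ordered as SAM, DREAM, dCas9-VPR and control, with only the first pair of neighbours overlapping.

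**Figure D1:**
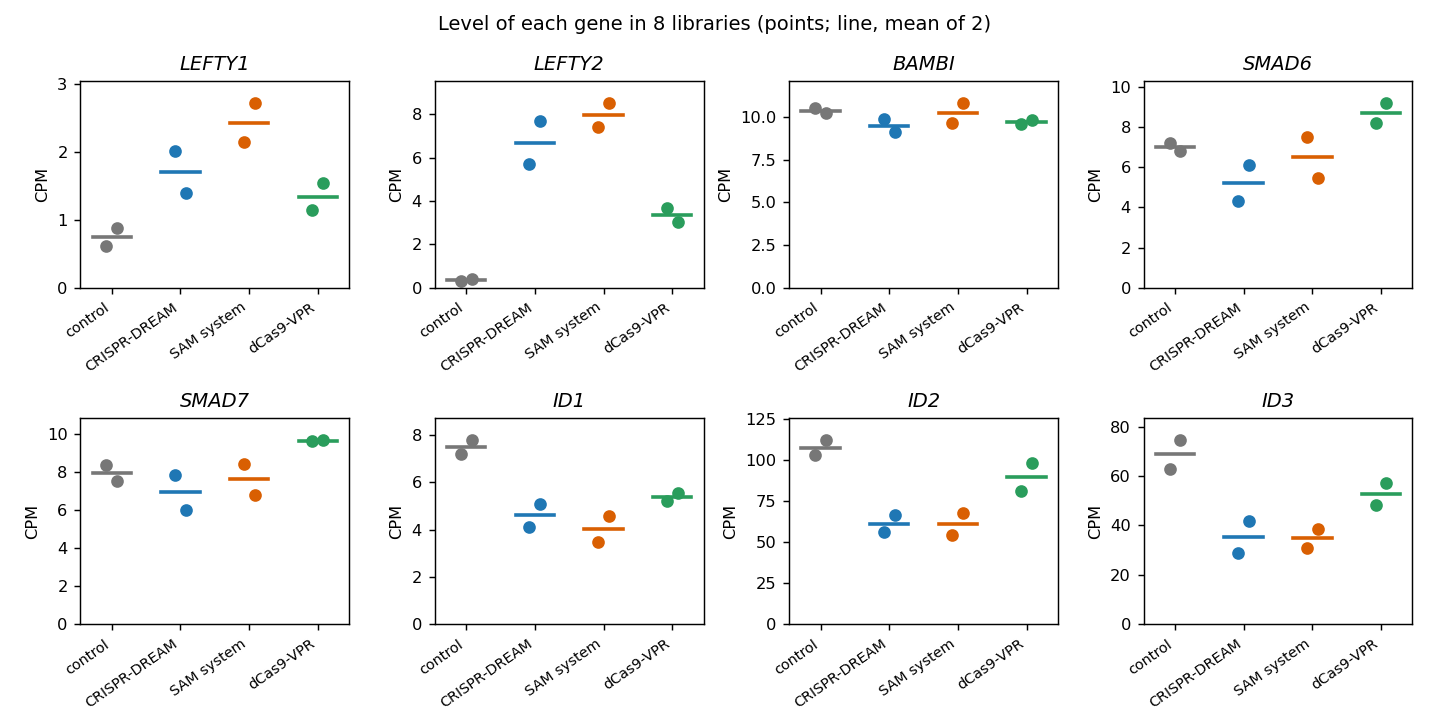
Level (CPM, linear axis from 0) of each of the 8 genes in the 8 libraries, with 1 point per library and a line at the mean of 2. *LEFTY1* and *LEFTY2* are higher in all activator libraries than in the control, *ID1*, *ID2* and *ID3* are lower, and the *BAMBI* points lie between 9.09 and 10.8 CPM throughout.

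*LEFTY1*, the neighbouring paralog, shifted the same way by a smaller amount. It lies on the same strand of chromosome 1 at 225886282 to 225911382, with 25 kb between the genes. It read 0.613 and 0.872 CPM in control libraries, 2.02 and 1.40 CPM under DREAM, 2.15 and 2.72 CPM under SAM, and 1.14 and 1.54 CPM under dCas9-VPR. No activator library overlapped the control. The order of the levels was SAM, DREAM, dCas9-VPR and control, with an overlap between DREAM and dCas9-VPR alone. The log2 differences from the control were 0.82, 1.24 and 0.56, each with a standard error of 0.21. Relative to dCas9-VPR, *LEFTY1* was higher by 0.68 ± 0.21 under SAM, and relative to SAM its DREAM difference was -0.42 ± 0.21.

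The balance between the paralogs also shifted. *LEFTY2* made up 33.0% ± 1.21 (SD, n = 2) of the summed *LEFTY1* and *LEFTY2* CPM in the control. It made up 79.2% ± 7.59 under DREAM, 76.7% ± 1.22 under SAM and 71.3% ± 6.97 under dCas9-VPR (SD, n = 2 each). *LEFTY1* was therefore the more abundant of the pair in the control, also per length at 0.393 against 0.159 CPM per kb of exon. *LEFTY2* was the more abundant in every activator group, at 2.93 against 0.903 CPM per kb under DREAM, 3.48 against 1.29 under SAM and 1.46 against 0.708 under dCas9-VPR.

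The division of reads between the paralogs is uncertain. Their main transcripts differ at 62 of 1325 aligned positions, and 23.7% of the 75-base windows of the *LEFTY1* transcript also occur in *LEFTY2*. A further gene of the annotation, *AL117348.2*, shares 24687 bases of its span with *LEFTY1* on the same strand. The sum of *LEFTY1* and *LEFTY2* does not depend on the division between them. It was 1.11 ± 0.254 CPM in the control, 8.40 ± 0.955 CPM under DREAM, 10.4 ± 1.19 CPM under SAM and 4.69 ± 0.160 CPM under dCas9-VPR (SD, n = 2 each). Its log2 differences from the control were 2.48, 2.77 and 1.70, each with a standard error of 0.15.

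**Figure D2:**
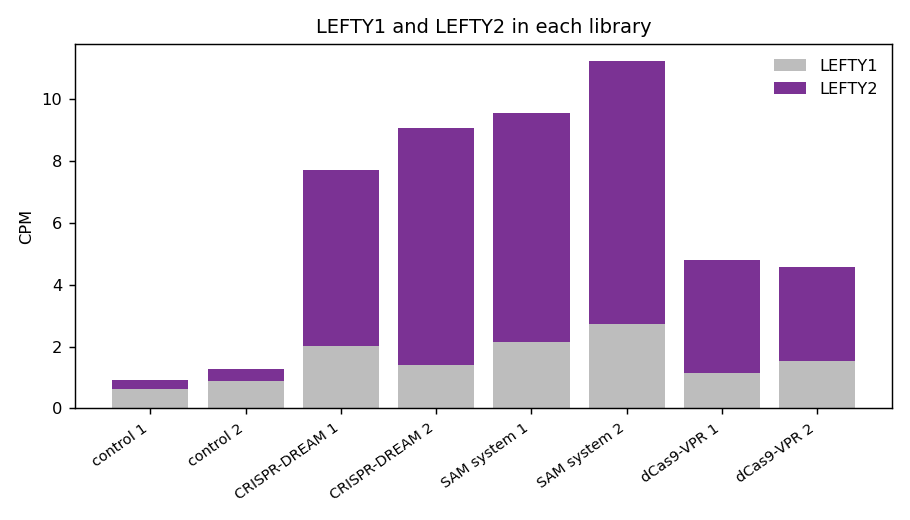
Stacked level (CPM, linear axis from 0) of *LEFTY1* (grey) and *LEFTY2* (purple) in each of the 8 libraries. *LEFTY2* is the smaller part in both control libraries and the larger part in all 6 activator libraries, where it makes up 71.3% to 79.2% of the sum on average.

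The other genes around the pair were compared in the same fit to see how far along the chromosome a difference reached. Within 200 kb there were 9 others, all tested. In the 3 comparisons with the control 0 of them passed a fold change above 2 with limma adjusted p below 0.05. Over all genes 2.55%, 4.34% and 1.10% did under DREAM, SAM and dCas9-VPR. At a smaller fold 3 of the 9 in each had adjusted p below 0.05. At any fold change 28.0%, 44.6% and 17.6% of all genes did, so nothing is read from these counts. *EPHX1*, which encodes an epoxide hydrolase, was at 51.3 and 53.1 CPM in control libraries and at 72.4 to 85.1 CPM in the activator libraries. It rose by 0.66 ± 0.06 under DREAM (limma adjusted p = 6.54e-05), by 0.53 ± 0.06 under SAM (adjusted p = 0.000188) and by 0.56 ± 0.06 under dCas9-VPR (adjusted p = 0.000537).

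Several of the remaining differences nearby depended on the scaling. *SRP9*, a signal recognition particle gene, fell by 0.22 under DREAM (limma adjusted p = 0.0042) and differed by -0.05 under SAM, but with median-of-ratios scaling it was lower in both, at -0.30 and -0.23 (adjusted p = 0.00219 and 0.00595). *SDE2* rose by 0.32 under SAM (limma adjusted p = 0.00226, or 0.0649 with that scaling). *H3-3A*, a histone gene, rose by 0.22 under dCas9-VPR (limma adjusted p = 0.0116, or 0.048 with that scaling), and its SAM difference of 0.03 turned to -0.15 with that scaling (adjusted p = 0.0411). The log2 differences of *TMEM63A* were between 0.02 and 0.14 and those of *LINC01703* between -0.05 and 0.32, with limma adjusted p of at least 0.0818. *AL512343.2* did not pass the test either, with differences of 0.06 to 0.75 ± 0.37. *AL117348.2* differed from the control by 0.93 ± 0.32 under DREAM, and was past the threshold only between DREAM and dCas9-VPR, at 1.32 ± 0.32. It reached 1 CPM only in the DREAM libraries, where it was high, and in SAM replicate 1, and no p is given for it. With the pseudocount of 0.5, the difference at *LEFTY2* was at least 2.16 on the log2 scale. It was 1.24 or less at *LEFTY1* and 0.93 or less at the other neighbours.

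**Figure D3:**
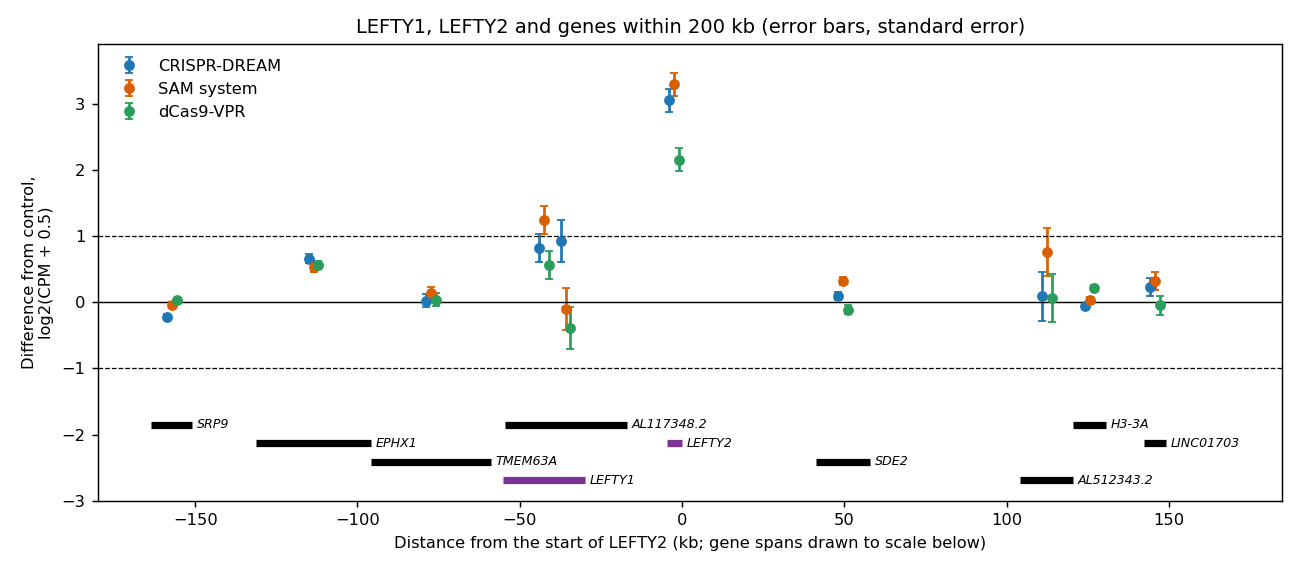
Difference from the control (log2(CPM + 0.5), points with standard error) of *LEFTY1*, *LEFTY2* and 8 genes within 200 kb of them, against distance from the start of *LEFTY2* in kb, with the gene spans to scale below and dashed lines at a fold change of 2. *LEFTY2* stands above the dashed line with all 3 activators, *LEFTY1* under SAM alone, and the other genes drawn lie between the lines.

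*BAMBI*, the pseudoreceptor, stayed closest to the control, in that its largest difference was smaller than that of any other of the 8 genes. It lies on the plus strand of chromosome 10 at 28677510 to 28682932 (hg38). It read 10.5 and 10.2 CPM in control libraries, 9.87 and 9.09 CPM under DREAM, 9.63 and 10.8 CPM under SAM, and 9.56 and 9.79 CPM under dCas9-VPR. The log2 differences from the control were -0.12, -0.02 and -0.10, each with a standard error of 0.10. Its sign between DREAM and SAM, and between SAM and dCas9-VPR, changed with median-of-ratios scaling.

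The inhibitory SMADs were at their highest in the dCas9-VPR libraries. *SMAD6*, on the plus strand of chromosome 15 at 66702236 to 66782849, was at 7.24 and 6.81 CPM in control libraries and at 8.24 and 9.21 CPM under dCas9-VPR. It was at 4.30 and 6.14 CPM under DREAM and at 7.52 and 5.49 CPM under SAM. The dCas9-VPR libraries were the 2 highest and the DREAM libraries were below the control, whereas the SAM libraries lay on both sides of it. The log2 differences from the control were -0.41, -0.12 and 0.29 in the order DREAM, SAM and dCas9-VPR, each with a standard error of 0.18.

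*SMAD7*, on the minus strand of chromosome 18 from 48919853, was at 8.39 and 7.53 CPM in control libraries and at 9.62 and 9.69 CPM under dCas9-VPR. It was at 7.85 and 6.00 CPM under DREAM and at 8.43 and 6.80 CPM under SAM. Both of the latter groups overlapped the control, and the dCas9-VPR libraries were above the 6 others. Its log2 differences were -0.20, -0.07 and 0.27, each with a standard error of 0.15. Between DREAM and dCas9-VPR the difference was -0.71 ± 0.18 for *SMAD6* and -0.46 ± 0.15 for *SMAD7*.

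The bases before the start of *BAMBI* and *SMAD6* are shown because SMADs are known to bind short DNA elements near feedback genes of this kind. Windows of 250 bases were taken from RefSeq (GRCh38.p14), which matched 6 of the 8 genes, and are read 5′ to 3′ on the gene's strand. *LEFTY1* and *LEFTY2* had no entry. Capitals mark CAGAC, the SMAD-binding element, or GGCGCC, a site of BMP-responsive SMADs, or GTCTAGAC, the palindromic form, each searched on both strands. GTCTAGAC holds no CAGAC, so these matches do not overlap.
BAMBI, chr10:28677271-28677520, plus strand: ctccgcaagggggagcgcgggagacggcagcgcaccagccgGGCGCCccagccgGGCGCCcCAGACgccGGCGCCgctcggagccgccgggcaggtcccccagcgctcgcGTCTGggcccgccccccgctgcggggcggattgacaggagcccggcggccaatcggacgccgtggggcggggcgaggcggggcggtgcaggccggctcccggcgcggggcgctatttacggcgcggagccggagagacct
SMAD6, chr15:66701986-66702235, plus strand: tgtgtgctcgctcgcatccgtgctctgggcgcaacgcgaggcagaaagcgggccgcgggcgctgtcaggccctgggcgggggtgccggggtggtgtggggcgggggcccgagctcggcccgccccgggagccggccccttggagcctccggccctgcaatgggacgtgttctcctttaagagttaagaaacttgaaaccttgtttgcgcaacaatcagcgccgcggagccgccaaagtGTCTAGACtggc
The *BAMBI* window held 3 GGCGCC and 2 CAGAC. The *SMAD6* window held GTCTAGAC from 12 to 5 bases before the start, and the first of 3 *SMAD7* windows held 2 CAGAC. Of 35116 such windows in RefSeq, 38.0% hold CAGAC, 16.4% hold GGCGCC and 0.182% hold GTCTAGAC. A match of these letters is not a measurement of binding.

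*ID1*, *ID2* and *ID3* were lower than in the control in all 6 activator libraries, and more so with the MCP-based activators than under dCas9-VPR. A lack of overlap with the control was also common among the other pathway genes, as counted above. *ID2*, on the plus strand of chromosome 2 at 8678845 to 8684461, was at 103 and 112 CPM in the control. It was at 56.2 and 66.3 CPM under DREAM, 54.3 and 67.8 CPM under SAM, and 80.9 and 98.0 CPM under dCas9-VPR. DREAM and SAM overlapped, and dCas9-VPR lay between them and the control. The log2 differences from the control were -0.81, -0.82 and -0.27, each with a standard error of 0.12. *ID2-AS1*, on the opposite strand, overlaps *ID2* and was at 0.421 to 1.28 CPM. The library kit is stranded, but whether strand was used in counting is not given in the sources used here.

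*ID3*, on the minus strand of chromosome 1 at 23557926 to 23559501, was at 62.9 and 74.6 CPM in the control. It was at 28.9 and 41.8 CPM under DREAM, 30.9 and 38.6 CPM under SAM, and 48.3 and 57.4 CPM under dCas9-VPR. The groups stood in the same order as for *ID2*, with DREAM and SAM overlapping. The log2 differences were -0.97, -0.98 and -0.38, each with a standard error of 0.17. Both larger values lay close to the fold change of 2. The *ID3* difference exceeded it without control replicate 1, at -1.09 under DREAM and -1.10 under SAM. It also exceeded it without DREAM replicate 2, at -1.23, and without SAM replicate 2, at -1.14.

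*ID1*, on the plus strand of chromosome 20 at 31605283 to 31606515, was the least abundant of the 3. It read 7.18 and 7.79 CPM in the control, 4.11 and 5.09 CPM under DREAM, 3.46 and 4.58 CPM under SAM, and 5.21 and 5.55 CPM under dCas9-VPR. DREAM and SAM overlapped again, below dCas9-VPR and the control. The log2 differences were -0.65, -0.83 and -0.44, each with a standard error of 0.15. Without SAM replicate 2 the SAM difference was -1.01, beyond a fold change of 2. Per length, the control level was 6.07 CPM per kb for *ID1*, 48.6 for *ID2* and 46.0 for *ID3*. The sum of the 3 genes was 173 and 195 CPM in the control, 89.3 and 113 CPM under DREAM, 88.7 and 111 CPM under SAM, and 134 and 161 CPM under dCas9-VPR.

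The windows before the RefSeq starts of the 3 genes are shown for comparison with those of the inhibitors, since these genes shifted together. The RefSeq start used for *ID2* lies 3.2 kb inside the Gencode span given for that gene, so its window is not the one before that span.
ID1, chr20:31605039-31605288, plus strand: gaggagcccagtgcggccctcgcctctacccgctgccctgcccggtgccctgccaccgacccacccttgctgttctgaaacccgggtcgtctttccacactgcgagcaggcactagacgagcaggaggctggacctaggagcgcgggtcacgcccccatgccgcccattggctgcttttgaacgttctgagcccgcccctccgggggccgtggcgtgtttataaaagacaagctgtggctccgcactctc
ID2, chr2:8681806-8682055, plus strand: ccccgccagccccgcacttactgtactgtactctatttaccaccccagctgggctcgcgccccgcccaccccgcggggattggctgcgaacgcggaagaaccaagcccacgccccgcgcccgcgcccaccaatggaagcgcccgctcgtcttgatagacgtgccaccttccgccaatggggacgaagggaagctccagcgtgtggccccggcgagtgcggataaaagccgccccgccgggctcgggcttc
ID3, chr1:23559502-23559751, minus strand: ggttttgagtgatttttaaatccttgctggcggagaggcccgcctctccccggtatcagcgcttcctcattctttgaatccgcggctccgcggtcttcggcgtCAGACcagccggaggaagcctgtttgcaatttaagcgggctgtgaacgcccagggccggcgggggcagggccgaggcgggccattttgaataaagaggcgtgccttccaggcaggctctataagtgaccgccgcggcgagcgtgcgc
*ID3* held 1 CAGAC, 147 to 143 bases before the start, and neither *ID1* nor *ID2* held any of the 3 motifs. The absence of these letters from the window says nothing of sites elsewhere in the genes.

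**Figure D4:**
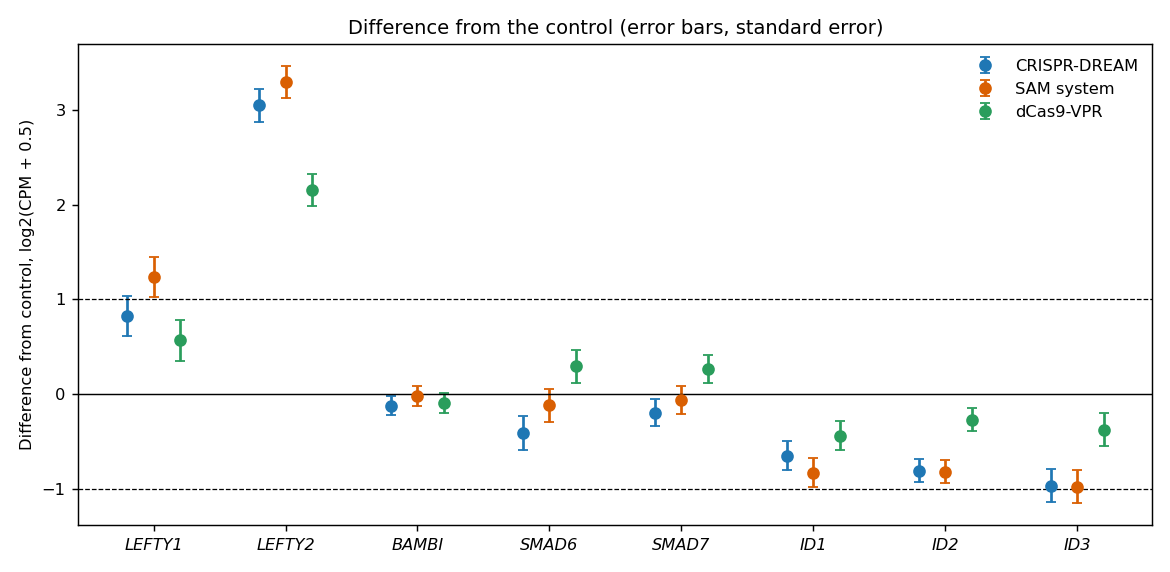
Difference from the control (log2(CPM + 0.5), points with standard error) of the 8 genes under DREAM, SAM and dCas9-VPR, with dashed lines at a fold change of 2. *LEFTY2* lies at 3.05, 3.29 and 2.16, *BAMBI* near 0, and *ID1*, *ID2* and *ID3* between -0.98 and -0.27.

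In the counts that follow, *LEFTY1* and *LEFTY2* were tested only through the activator libraries, as both were below 1 CPM in the control. Counted at a fold change above 2 with limma adjusted p below 0.05, 1 of the 8 genes (*LEFTY2*) was past the threshold under DREAM, where 2.55% of the 15122 genes tested were. With SAM 2 were (*LEFTY1* and *LEFTY2*), where 4.34% of all genes were, and under dCas9-VPR 1 was (*LEFTY2*), where 1.10% were. Between DREAM and SAM 0 were (0.721% of all genes), as between DREAM and dCas9-VPR (0.734%), and between SAM and dCas9-VPR 1 was (*LEFTY2*, with 2.31% of all genes). Without DREAM replicate 1 or dCas9-VPR replicate 1, *LEFTY2* was past it between DREAM and dCas9-VPR too, at 1.09 and 1.01. Without DREAM replicate 2, *LEFTY1* was past it under DREAM, at 1.03.

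At limma adjusted p below 0.05 with any fold change, 5 of the 8 genes were called under DREAM and 5 under SAM, in both cases *LEFTY1* and *LEFTY2* as higher and the 3 *ID* genes as lower. Of all genes tested, 28.0% and 44.6% were called in these comparisons. With dCas9-VPR 1 was called (17.6% of all genes). Between DREAM and SAM 0 were called (10.7% of all genes), and 0 were below an unadjusted p of 0.05 by limma, the one tool run. Between DREAM and dCas9-VPR 3 were called (13.1% of all genes), *LEFTY2* as higher and *ID2* and *SMAD6* as lower. Between SAM and dCas9-VPR 4 were called (29.9% of all genes), *LEFTY1* and *LEFTY2* as higher and *ID2* and *ID3* as lower. At an unadjusted limma p below 0.05 were 6, 5 and 3 of the 8 relative to the control under DREAM, SAM and dCas9-VPR. Relative to dCas9-VPR, 5 were under DREAM and 7 under SAM. The share of all genes at that p is not given here, so nothing is read from these counts. The genes were chosen with these results known. The median log2 difference of the 8 genes was -0.31 under DREAM, -0.09 under SAM and 0.08 under dCas9-VPR, beside 0.06, 0.16 and 0.06 over all genes. Median-of-ratios scaling moved the SAM median over all genes from 0.16 to -0.01, and with it *ID2* and *ID3* were past the threshold under SAM, *ID2* just at the fold limit and *ID3* at -1.16.

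The rest of the pathway was examined through 103 other genes listed by role, of which 96 were in the files and 83 were tested. *GDF3*, *TDGF1*, *GREM1*, *CER1*, *FOXH1*, *SOX17* and *COL1A2* were not analysed here. Past the threshold were 2 under DREAM, 5 under SAM and 2 under dCas9-VPR, or 2.41%, 6.02% and 2.41% of the genes tested. Over all genes the shares were 2.55%, 4.34% and 1.10%. Of the 5 under SAM, *GDF5* and *MIXL1* reached the filter on low values in the SAM libraries alone. *GDF10*, counted under both DREAM and SAM, reached it in the libraries of those groups alone. At limma adjusted p below 0.05 with any fold change, 17 rose and 12 fell under DREAM, 33 rose and 7 fell under SAM, and 10 rose and 6 fell under dCas9-VPR, of 83 genes each, beside the 28.0%, 44.6% and 17.6% of all genes. With median-of-ratios scaling 13 rose and 15 fell under DREAM, 20 rose and 11 fell under SAM, and 9 rose and 7 fell under dCas9-VPR. Their median log2 differences were 0.07, 0.26 and 0.11, near the 0.06, 0.16 and 0.06 over all genes. Comparisons with the control share the same 2 control libraries.

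Among 18 ligands tested, those past the threshold were expressed at low levels or fell. *GDF10*, a BMP-family ligand, had 0.255 and 0.391 CPM in the control. Its difference was 1.24 ± 0.18 under DREAM and 1.22 ± 0.18 under SAM. It reached 1 CPM only in the libraries of these groups, where it was high, and no p is given for it. *GDF5*, another BMP-family ligand, was at 0.128 and 0.196 CPM in control libraries and at 1.00 and 1.02 CPM under SAM, a difference of 1.20 ± 0.21. It reached 1 CPM in the SAM libraries alone and so was tested only through the group where it was high, and no p is given for it. *INHBE*, an activin beta subunit and the most abundant ligand of the list in the control, at 60.4 and 74.0 CPM, fell by 0.92, 1.00 and 1.13, each ± 0.10, under DREAM, SAM and dCas9-VPR (limma adjusted p = 0.000137, 6.91e-05 and 0.000133). *NODAL*, the ligand that the LEFTY proteins oppose, was at 0.176 to 0.431 CPM and did not pass the filter on low values.

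Of 14 receptors tested, *ACVRL1*, which encodes the type I receptor ALK1, was the one past the threshold in each comparison with the control. It read 1.44 and 0.880 CPM in the control, 3.92 and 4.21 CPM under DREAM, 3.60 and 4.07 CPM under SAM, and 3.18 and 2.47 CPM under dCas9-VPR. The differences were 1.48, 1.41 and 1.02, each ± 0.19 (limma adjusted p = 0.000346, 0.000339 and 0.0063). With dCas9-VPR it and *INHBE* were no longer past the threshold without control replicate 2, which left 0 genes of the lists. *ACVRL1* was not past it under dCas9-VPR without dCas9-VPR replicate 1, with a pseudocount of 1 or with median-of-ratios scaling, where the difference was 0.98. *TGFBR1*, the type I receptor of TGF-beta and the most abundant in the control at 72.9 and 70.0 CPM, rose by 0.39 ± 0.07 under SAM and by 0.32 ± 0.07 under dCas9-VPR (limma adjusted p = 0.00141 and 0.0123). Its difference under DREAM was 0.14 ± 0.07 (adjusted p = 0.164).

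None of the 13 extracellular inhibitors or 16 SMADs and partners tested was past the threshold. At limma adjusted p below 0.05 with any fold change, 3 inhibitors rose and 2 fell under DREAM, 4 rose under SAM, and 2 rose and 1 fell under dCas9-VPR. By the same rule 1 SMAD or partner rose and 1 fell under DREAM, 9 rose under SAM and 1 rose under dCas9-VPR. The shares of all genes called were 28.0%, 44.6% and 17.6%, and the rises under SAM over all lists went from 33 to 20 with median-of-ratios scaling. *TWSG1*, a BMP-binding protein and the most abundant inhibitor, was at 57.8 and 56.8 CPM in the control with differences of 0.13 to 0.19 ± 0.08, which did not pass the test. *SMAD5*, at 144 and 133 CPM in the control, rose by 0.21 ± 0.06 under SAM (limma adjusted p = 0.0215), close to the 0.16 of all genes, and with median-of-ratios scaling the difference was 0.03 (adjusted p = 0.695). Its differences under DREAM and dCas9-VPR were -0.01 and 0.12 ± 0.06.

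Targets of the SMADs moved in both directions. *MIXL1*, one of 6 Nodal and activin targets tested, which lies 282 kb from *LEFTY2*, was at 0.223 and 0.522 CPM in control libraries and at 1.63 and 2.13 CPM under SAM, a difference of 1.46 ± 0.22. Its difference from the control was 0.66 ± 0.22 under DREAM and 0.24 ± 0.22 under dCas9-VPR. Like *GDF5* it reached 1 CPM in the SAM libraries alone, and no p is given for it. With either one of the SAM libraries left out, both genes fell below the filter and were not tested. With no filter on low values both were past the threshold under SAM.

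Of 8 TGF-beta targets tested, *CCN2*, which encodes connective tissue growth factor, rose by 1.30 ± 0.15 under SAM, from 3.86 and 3.72 CPM to 8.60 and 11.7 CPM (limma adjusted p = 0.000182). It rose by 0.50 ± 0.15 under DREAM (adjusted p = 0.0348, or 0.0662 with median-of-ratios scaling), and DREAM was below SAM by a log2 difference of -0.80 ± 0.15 (adjusted p = 0.0144). Under dCas9-VPR it was at 2.63 and 3.08 CPM, below both control libraries, with a difference of -0.36 ± 0.15 that did not pass the test (limma adjusted p = 0.13). *CDKN1A*, a cell-cycle inhibitor and the most abundant of that list, was at 153 and 154 CPM in the control. It fell by 0.48 ± 0.06 with both DREAM and SAM (limma adjusted p = 0.000271 and 0.000201) and rose by 0.23 ± 0.06 under dCas9-VPR (adjusted p = 0.0245, or 0.0666 with median-of-ratios scaling).

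Of the 8 BMP targets tested besides *ID1*, *ID2* and *ID3*, 0 were past the threshold in the comparisons with the control. At limma adjusted p below 0.05 with any fold change, 1 rose and 3 fell under DREAM, 1 rose and 2 fell under SAM and 2 fell under dCas9-VPR, beside 28.0%, 44.6% and 17.6% of all genes. *ID4*, the other gene of the *ID* family, named here after its values were seen, had 110 and 109 CPM in the control and fell by 0.22, 0.30 and 0.35, each ± 0.06 (limma adjusted p = 0.0193, 0.00271 and 0.00454). *MSX1*, likewise named after its values were seen, went the other way. It rose by 0.35 ± 0.08 under DREAM and by 0.55 ± 0.08 under SAM (limma adjusted p = 0.00907 and 0.000535). *HEY1*, the most abundant of this list at 207 and 211 CPM, fell by 0.22 ± 0.05 under dCas9-VPR (adjusted p = 0.011), and its differences under DREAM and SAM were 0.04 and -0.09 ± 0.05. With median-of-ratios scaling the SAM difference was -0.27 (adjusted p = 0.00306), close to the -0.28 under dCas9-VPR (adjusted p = 0.00781), and the DREAM difference was -0.03. *ATOH8*, also named after its values were seen, was past the threshold between SAM and dCas9-VPR, at 1.13 ± 0.28 (limma adjusted p = 0.012).

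Between the activators, 31 and 29 of the 83 genes were at an unadjusted limma p below 0.05 for DREAM relative to SAM and dCas9-VPR. The share of all genes at that p is not given here. Past the threshold were 0 of the 83 in both comparisons. For SAM relative to dCas9-VPR 4 were, all higher, namely *ATOH8*, *CCN2*, *GDF5* and *MIXL1*, the last pair tested only through the SAM libraries. Without SAM replicate 1 the count was 2 (*ATOH8* and *CCN2*) and without SAM replicate 2 it was 1 (*CCN2*). Relative to SAM, leaving out DREAM replicate 2 put *NOG* and *SOSTDC1*, which encode BMP antagonists, past the threshold, and leaving out SAM replicate 1 put *CCN2* past it.

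**Figure D5:**
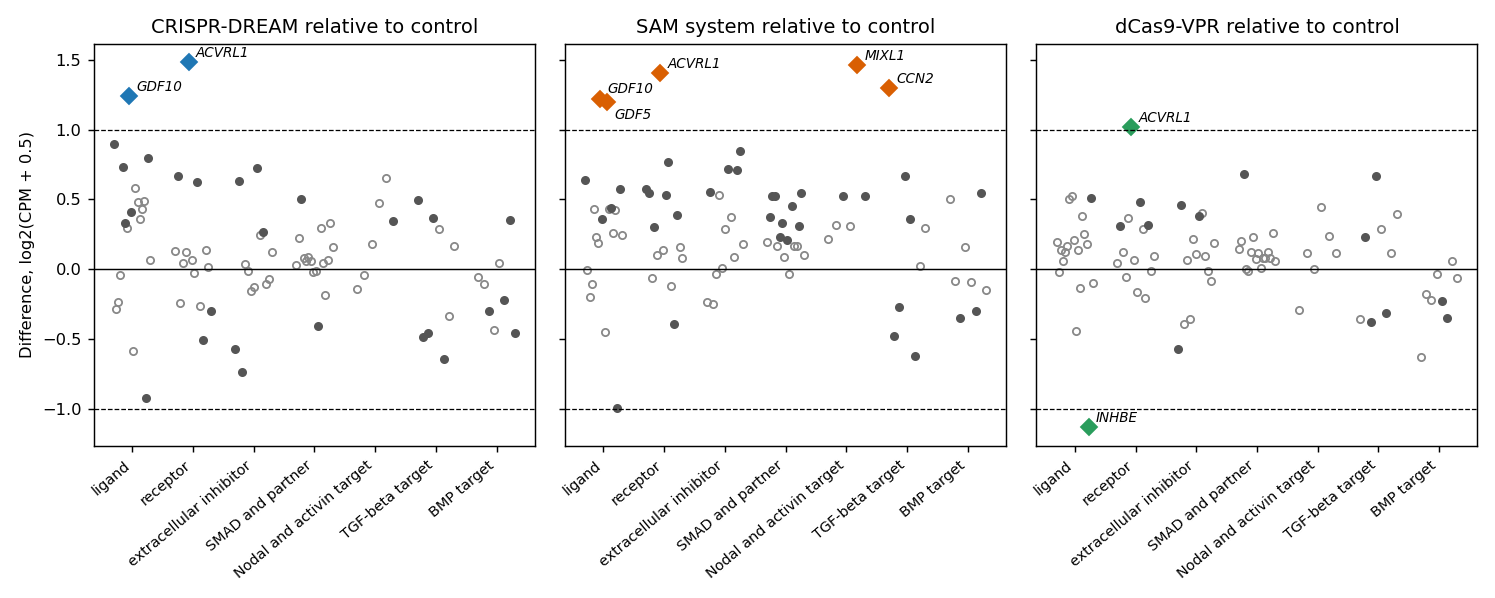
Difference from the control (log2(CPM + 0.5)) of the 83 pathway genes tested, in 7 lists by role and 1 panel per activator. Diamonds with names are past a fold change of 2 (dashed lines) with limma adjusted p below 0.05, filled points have adjusted p below 0.05 alone, and open points neither. *ACVRL1* is past the threshold in each panel, whereas the lists as a whole spread to both sides of 0.

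Across the 8 libraries, the genes whose log2(CPM + 0.5) followed *LEFTY2* most closely were *FOLR1* (Pearson r = 0.992), *TMEM198B* (0.990), *GSN* (0.990), *WNT11* (0.989) and *CKM* (0.989), among 15121 genes ranked. These values describe 8 libraries in 4 groups and so carry the group differences, and they share 2 control libraries. *FOLR1*, a folate receptor gene, read 0.734 and 0.685 CPM in the control, 3.99 and 5.65 CPM under DREAM, 4.34 and 6.34 CPM under SAM, and 2.86 and 2.60 CPM under dCas9-VPR. *WNT11*, a Wnt ligand gene, went from 6.47 and 6.49 CPM in the control to between 8.53 and 11.8 CPM in the activator libraries. Within the 8 genes, r to *LEFTY2* was 0.879 for *LEFTY1*, -0.891 for *ID1*, -0.864 for *ID2* and -0.847 for *ID3*, and *ID2* and *ID3* were at 0.987 to each other. For *BAMBI*, *SMAD6* and *SMAD7* it was between -0.403 and -0.284.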

How the data were processed

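RNA-seq was performed on HEK293T cells in duplicate for each of 4 groups. Per the labels the molecule was polyA RNA, whereas the library kit is one for total RNA. Reads were paired-end, 75 bases. The authors aligned reads to hg38 (Gencode release 36) with STAR 2.7.3a, quantified transcript levels and deposited CPM values per library, with 0.0001 CPM added to each value. This offset was removed here. The submitters' processing notes also list DESeq2 3.5, with which the authors compared groups, and no count model was run here. The step between low CPM values served to estimate depth. Between 69.9% and 74.6% of low values were whole reads within 0.1 read, so reads per gene were not recovered.

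A linear model of log2(CPM + 0.5) with a mean for each group was fitted to all 8 libraries (limma 3.58.1, R 4.3.3, robust empirical Bayes with a trend, 4 residual degrees of freedom, 6 contrasts). A gene was tested if 2 or more libraries reached 1 CPM (15122 genes), with Benjamini-Hochberg adjustment over all of them and a threshold of fold change above 2 with adjusted p below 0.05. The fit was also run on simulated data with independent libraries, the same added spread for every gene and changed genes under DREAM alone. That setting differs from these libraries, so nothing about the calls given here is drawn from it. p-values measure the spread between the 2 libraries of a group, which the labels do not tie to separate cultures, and an exact two-sided permutation test of 2 against 2 cannot give p below 0.333.

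The 8 genes and the gene lists were chosen with earlier results of these data known. Named besides the 8 genes are pathway genes past the threshold in a comparison with the control, the most abundant gene of each list in the control, genes within 200 kb of *LEFTY1* or *LEFTY2*, the 5 genes with the highest Pearson r to *LEFTY2*, and *HBG1* and *HBG2*, of which *HBG1* was listed at 0 CPM in both control libraries and was at 0.385 to 12.7 CPM in the others. Gene positions and exonic lengths come from Gencode 44 (hg38), parsed in Python 3.11.15 using pandas 2.3.3 and Biopython 1.88. The release differs from that used by the authors. Some genes that the naming rule selects were kept in the fit, the counts and the adjustment but are not reported here. Figures were drawn with matplotlib 3.10.9. Alternatives were pseudocounts of 0.1 and 1, no filter or a filter at 10 CPM, median-of-ratios scaling, only the libraries compared, no fold change threshold, a replicate block and leaving out each library.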

Additional observations from a re-analysis of the deposited data

How the results depend on the processing

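Of 690 values of the 8 genes under the alternatives, 673 differed from those given by less than 1 SD between replicates. The other 17 moved by more, and 0 reversed a call. Most of these outcomes were fixed in advance. The filters, the replicate block, using only the libraries compared and leaving out a library of another group cannot change a log2 difference. Leaving out a compared library cannot move it beyond that SD. Only the pseudocounts and the scaling could move a value, so the 673 are no measure of stability. The count of the 8 genes past the threshold was 1 under DREAM relative to the control. It was 2 with a pseudocount of 0.1 (with *LEFTY1*), 2 with median-of-ratios scaling (with *ID3*), 0 with a filter at 10 CPM, which left 3 of the 8 genes to test and removed both *LEFTY* genes, 5 with no fold change threshold, and 1 to 3 with each library left out. With SAM the count of 2 became 1 with a pseudocount of 1 (without *LEFTY1*), 4 with median-of-ratios scaling, 0 with the 10 CPM filter, 5 with no fold change threshold and 2 to 4 with each library left out. With dCas9-VPR the count of 1 became 0 with the 10 CPM filter. The counts for DREAM and SAM relative to dCas9-VPR became 3 and 4 with no fold change threshold, the first was 0 to 1 with each library left out, and the second was 0 with the 10 CPM filter.

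For the other pathway genes, a pseudocount of 0.1 gave 5 under DREAM relative to the control and 1 relative to SAM. A pseudocount of 1 gave 1, 3 and 1 relative to the control, in the order DREAM, SAM and dCas9-VPR, and 1 for SAM relative to dCas9-VPR. The 10 CPM filter, which left 53 genes, gave 0, 0, 1 and 0 in the same comparisons, and median-of-ratios scaling gave 1 under dCas9-VPR. With no fold change threshold the counts were 29, 40 and 16 relative to the control, 12 and 16 for DREAM relative to SAM and dCas9-VPR, and 24 for SAM relative to dCas9-VPR. With each library left out they were 2 to 3, 3 to 6 and 0 to 2 relative to the control, 0 to 2 between DREAM and SAM, and 1 to 5 between SAM and dCas9-VPR. The cause of these changes was not tested where none is given.

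A replicate block changed no count, with 1, 2, 1, 0, 0 and 1 of the 8 genes past the threshold over the 6 comparisons and 2, 5, 2, 0, 0 and 4 pathway genes. Same-numbered libraries of different groups deviated together at r = 0.133 to 0.326, but the labels give no shared batch for the numbers, and 2 pairs are too few to settle it. The pseudocount set the size of the *LEFTY2* difference from the control, which ranged from 2.49 to 3.87 under DREAM, 2.71 to 4.13 under SAM and 1.67 to 2.90 under dCas9-VPR. Control *LEFTY2* values rest on about 10 reads per library, which limits the precision of its ratios.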
